A study of Schizosaccharomyces pombe with 40 samples.

Results

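A set of 9 genes, most of which build or load the fission yeast centromere, was followed through a hydroxyurea time course in strains with altered rep2. They were cnp1, cnp3, mis6, mis12, mis16, mis18, sim3, sim4 and cnt5, chosen by name as all probes whose platform gene symbol was one of these. All 9 were on the array with 2 probes each and all 9 passed the filter on missing values, among 4816 genes with a symbol of their own and 5004 features tested. The largest movement was a fall of cnp3, the gene of the CENP-C protein, which was 4.92-fold lower at 60 min than at 0 min in 1 strain. The 0 min arrays of that strain stood apart from its later arrays across all features. Against its 10 min arrays the log2 difference of cnp3 at 60 min was −0.36 and did not pass the test. In the mean over the strains cnp3 fell and cnp1, the gene of the centromeric histone CENP-A, rose, while mis16 and sim3 passed the test at none of the times.

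Total RNA was measured on 40 two-colour arrays of Schizosaccharomyces pombe. The cells carried 1 of 4 alleles of rep2, the truncations Cdelta21, Cdelta53 and Cdelta94 or the site mutation 2C/S-H/Y. They grew at 30 °C in YES, a rich medium. Samples carry the times 0, 10, 30, 60 and 120 min of treatment with 8 mM hydroxyurea, and each of the 20 groups of strain and time has 2 arrays. Every array compared the strain, labelled with Cy5, with 1 wild-type reference labelled with Cy3, which was pooled RNA of untreated mid-log cells. No wild-type culture was sampled in hydroxyurea, and how a strain without the rep2 alleles responds is not part of these data. A field of the labels describes the cells as another mutant, so strains were taken from the titles. Whether both arrays of a group had cultures of their own is not stated, so each p-value rests on a spread between arrays that may be only technical.

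Centromeres are marked by nucleosomes in which CENP-A replaces histone H3. In fission yeast Mis16, a histone-binding WD-repeat protein, and Mis18 prepare the site for new CENP-A, and Sim3, a chaperone of the NASP family, escorts it. CENP-C binds the CENP-A nucleosome, the inner kinetochore proteins Mis6 (CENP-I) and Sim4 (CENP-K) assemble beside it, and the MIS12 complex, to which Mis12 belongs, joins them to the outer kinetochore that holds microtubules. Hydroxyurea starves cells of deoxyribonucleotides and holds them in S phase, and Rep2 activates MBF, the transcription complex of genes for the start of S phase. A transcript level in a culture cannot tell more cells at one stage of the cycle from more transcript in each cell. The last gene, cnt5, goes against the heading under which it was grouped. Its product belongs to a family of GTPase-activating proteins of the small GTPase Arf and is not a centromere component. The RefSeq table lists csx2 as its synonym, and it entered the set as a target of MBF.

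Some arrays stood apart before any gene was read. The 2 arrays of Cdelta53 differed at each of the 5 times by an SD of 0.058 to 0.0829 across features, against 0.143 to 0.324 for the other 15 replicate pairs, and the 30 min and 60 min replicate 1 arrays of 2C/S-H/Y were as close to each other (6 near-repeat pairs in all). Where counting such arrays once ends the call of a difference named below, its value or adjusted p under that count, or the number of calls left, is given. The levels of mis16, mis18 and mis6 in Cdelta53 against each other strain, and the cnp3 differences of 2C/S-H/Y, kept their calls under it. In 2C/S-H/Y the 0 min arrays correlated with the 10 min arrays at r = 0.59 across features, and the 10 min with the 30 min arrays at 0.92, and every change against 0 min in that strain uses that 1 pair. In Cdelta94 the 0 min arrays were nearer to the 120 min arrays (r = 0.95) than to the 30 min arrays (r = 0.85). Whether these arrays hold the times their labels give was not tested, and the differences from 0 min in 2C/S-H/Y and the course of Cdelta94 are those of the labelled times. At the rep2 probes the mean log2 ratio over the 10 arrays was 0.26 ± 0.21 (SD) for 2C/S-H/Y and, among the truncations, −0.80 ± 0.14 for Cdelta21, −3.02 ± 0.20 for Cdelta53 and −5.14 ± 0.30 for Cdelta94. In Cdelta53 the 2 probes averaged −1.36 and −4.68, in Cdelta94 −5.19 and −5.09, in Cdelta21 −0.695 and −0.90 and in 2C/S-H/Y 0.63 and −0.10. The mean for Cdelta53 is thus a value that neither probe reads. A truncation may remove what a probe reads, so these are signals at the probes and not levels of the transcript.

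In every sentence below a level is the log2 ratio of strain to reference on an array, averaged over the 2 probes of the gene, and a difference is between 2 such levels. Differences were tested with limma over all 5004 features, SE is limma's standard error, and a gene is called where the Benjamini-Hochberg adjusted p is under 0.05. "Rose", "fell", "higher" and "lower" are used of called differences.

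**Figure D1:**
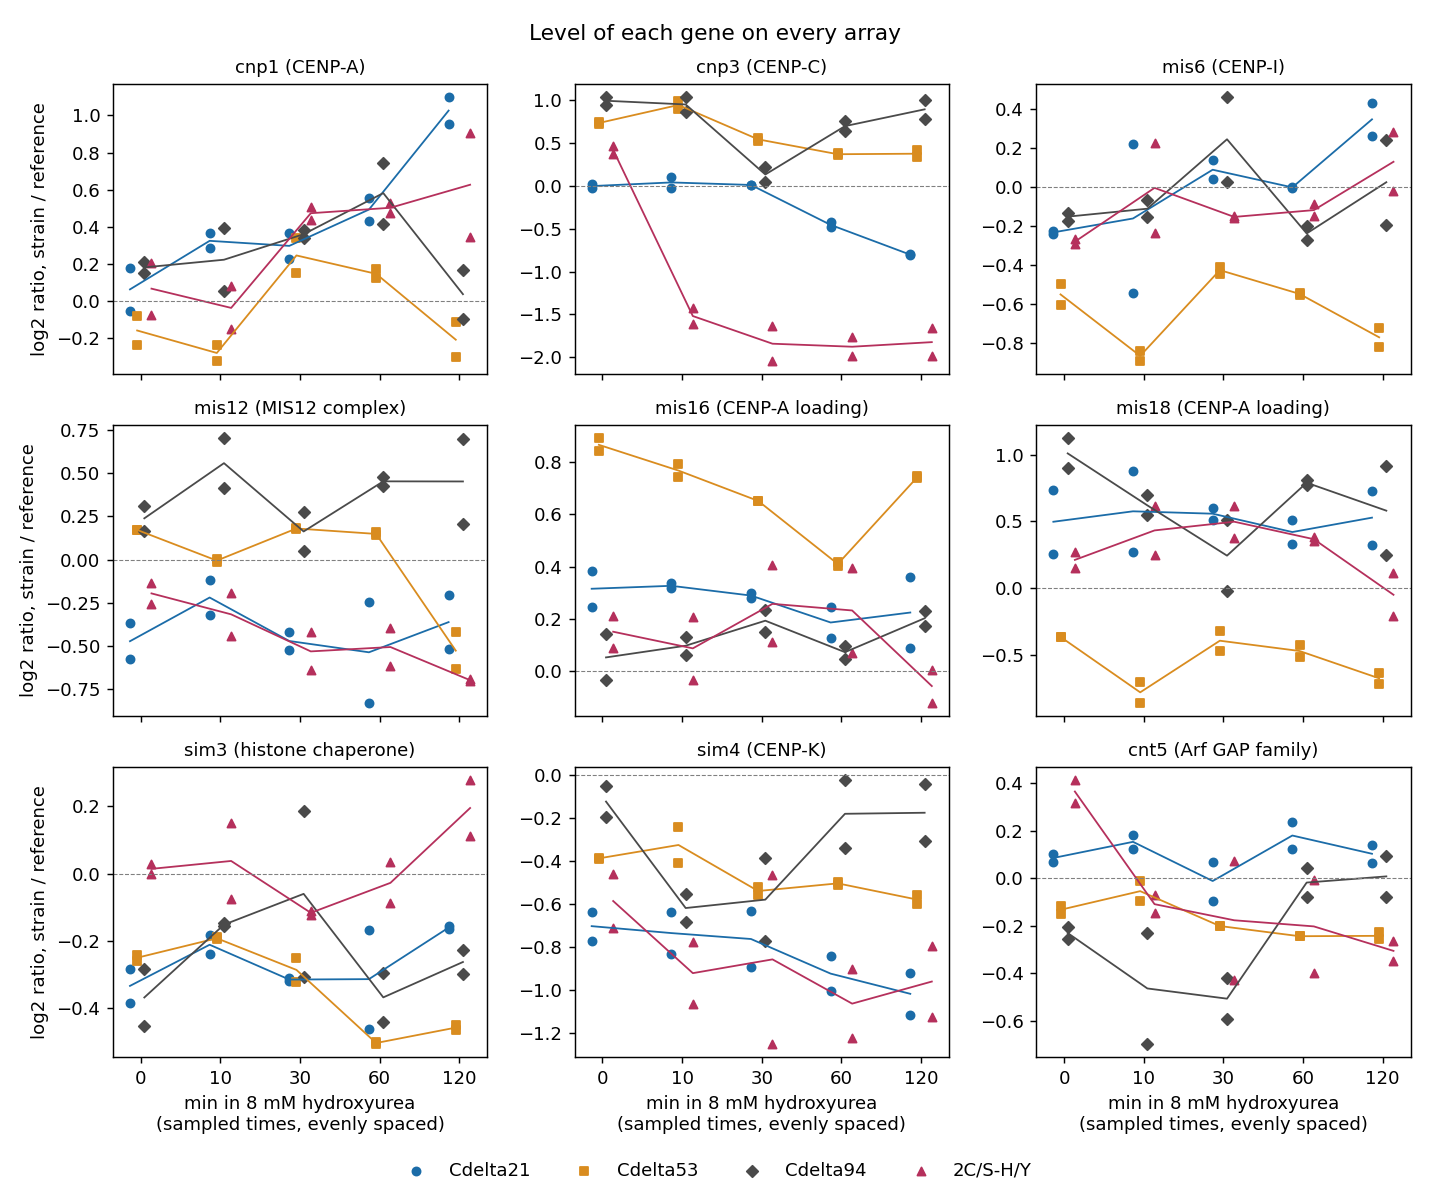
Level of each of the 9 genes on every array (log2 ratio of strain to wild-type reference, each panel with its own scale) against the sampled times in hydroxyurea, which are evenly spaced on the axis. Points are single arrays, 2 per strain and time, and lines join their means. The drop of cnp3 in 2C/S-H/Y between 0 and 10 min and the low mis6 and mis18 of Cdelta53 at all times stand out.

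The CENP-C gene cnp3 moved furthest. On the 2C/S-H/Y arrays it stood at 0.47 and 0.38 at 0 min and at −1.61 and −1.43 at 10 min. It then stood at −2.04 and −1.64 at 30 min, at −1.99 and −1.77 at 60 min and at −1.66 and −1.99 at 120 min. All 8 later arrays lay below every other array of the study for this gene, whose next lowest was −0.80. Against 0 min the differences were −1.94, −2.26, −2.30 and −2.25 at 10, 30, 60 and 120 min (SE 0.12, n = 2 arrays against 2, limma's adjusted p at most 1.033e-12). Counting near-repeat arrays once gave −2.06 and −2.19 at 30 and 60 min (limma's adjusted p at most 5.35e-09). The fold at 60 min was 4.92. Among the 5004 features these were the 3rd, 2nd, 2nd and 3rd lowest differences of the strain. Nearly all of the movement lay between 0 and 10 min, the same interval in which the arrays of this strain part from each other. Against its 10 min arrays, a comparison chosen after the values were seen, cnp3 differed by −0.32 at 30 min, −0.36 at 60 min and −0.30 at 120 min (limma's adjusted p = 0.3138, 0.1138 and 0.05859).

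Both cnp3 probes saw the drop. At 0 min in 2C/S-H/Y probe 1 read 0.46 and 0.38 and probe 2 read 0.47 and 0.37. At 10 min probe 1 read −1.52 and −1.16 and probe 2 read −1.70 on both arrays. The probes parted most on replicate 1 at 120 min, with −0.83 for probe 1 and −2.49 for probe 2. Over all 40 arrays they correlated at r = 0.97, the closest of the 9 genes.

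**Figure D2:**
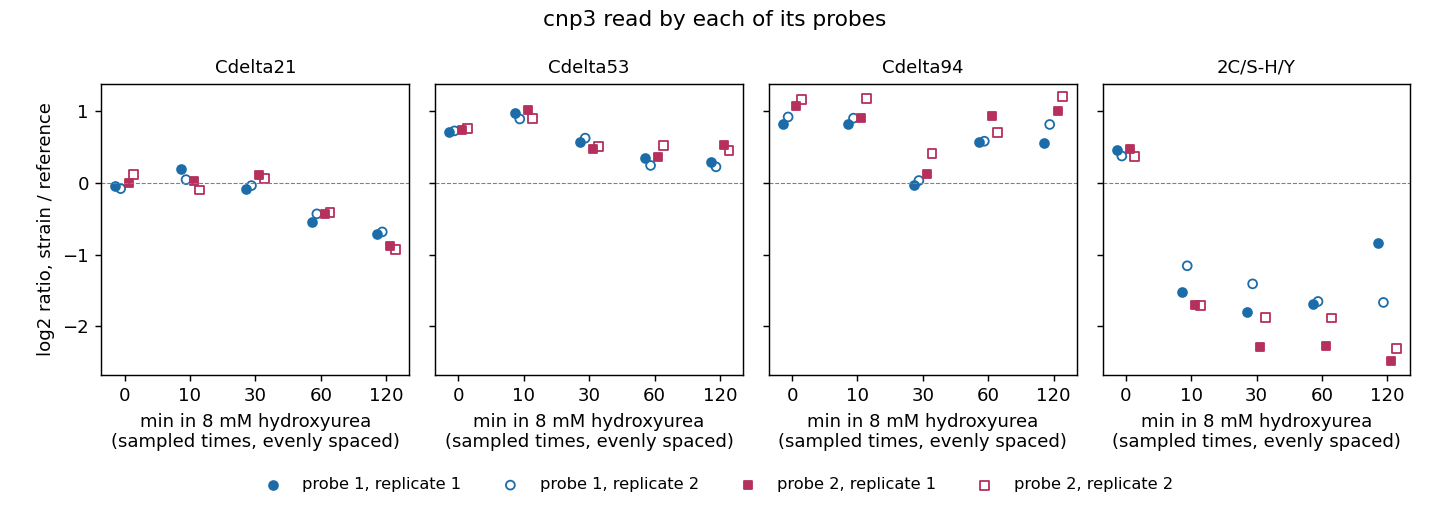
The 2 probes of cnp3 read apart, as log2 ratio of strain to reference, by strain and sampled time (evenly spaced). Filled and open symbols are replicate 1 and 2. In 2C/S-H/Y both probes go from 0.37 to 0.47 at 0 min to between −1.70 and −1.16 at 10 min, and in Cdelta94 both are lowest at 30 min.

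In the truncation strains cnp3 was also called lower, by less at 60 and 120 min. In Cdelta21 it stood at −0.02 and 0.02 at 0 min, at −0.48 and −0.42 at 60 min and at −0.80 on both arrays at 120 min. The groups did not overlap, and it fell by 0.45 at 60 min (SE 0.12, limma's adjusted p = 0.009758) and by 0.80 at 120 min (limma's adjusted p = 1.307e-05). The 60 min call was lost without either 0 min array or the 60 min replicate 1 array (limma's adjusted p up to 0.0644, with values from −0.47 to −0.42). In Cdelta53 cnp3 went from 0.73 and 0.74 at 0 min to 0.42 and 0.34 at 120 min, a difference of −0.36 (limma's adjusted p = 0.01714, and 0.186 with near-repeat arrays counted once). That call was also lost without either 0 min array or the 120 min replicate 2 array (0.0679 to 0.11). In Cdelta94 it was at 0.95 and 1.04 at 0 min and dipped to 0.05 and 0.22 at 30 min. It then stood at 0.76 and 0.64 at 60 min and at 0.78 and 1.01 at 120 min. The 30 min difference was −0.86 (limma's adjusted p = 5.02e-06). At 60 min the difference was −0.30 (limma's adjusted p = 0.1358), and at 120 min it was −0.10. All 4 strains thus had cnp3 called lower at 1 or more times, at times that differed between them.

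These courses differed between strains. For cnp3 the interaction F test over strain and time gave F = 34 (limma's adjusted p = 5.678e-11). At 60 min the difference from 0 min in 2C/S-H/Y was lower than in Cdelta21 by 1.85, than in Cdelta53 by 1.93 and than in Cdelta94 by 2.0 (SE 0.17, limma's adjusted p at most 1.333e-08). At 120 min the gaps were 1.44, 1.89 and 2.15. The 120 min difference of Cdelta21 minus that of Cdelta94 was −0.70 (limma's adjusted p = 0.01137), a call lost without Cdelta94 replicate 1 at 0 min or replicate 2 at 120 min (limma's adjusted p up to 0.0583) and with probe 1 alone (0.329) or the compared groups fitted alone (0.0898). The level over all 5 times was lowest in 2C/S-H/Y (mean −1.33), then Cdelta21 (−0.24), Cdelta53 (0.60) and Cdelta94 (0.74). The last step, Cdelta53 minus Cdelta94, was −0.14 (limma's adjusted p = 0.02024), and it was 0.10 with quantile normalization (0.148) and lost its call with near-repeat arrays counted once (0.0802).

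The CENP-A gene cnp1 moved the other way. In Cdelta21 it stood at −0.05 and 0.18 at 0 min, 0.28 and 0.36 at 10 min, 0.22 and 0.37 at 30 min, 0.55 and 0.43 at 60 min and 1.10 and 0.95 at 120 min. All 8 later arrays lay above both 0 min arrays, and the 120 min pair was the highest. It rose by 0.97 at 120 min (SE 0.15, 1.95-fold, limma's adjusted p = 2.292e-05) and by 0.43 at 60 min (limma's adjusted p = 0.04533). The 60 min call was lost without the Cdelta21 0 min replicate 1 array (0.32, limma's adjusted p = 0.328) and, in all, in 15 of the 40 fits that left out 1 array. Its adjusted p was 0.11 when near-repeat arrays were counted once. In 2C/S-H/Y cnp1 stood at −0.08 and 0.21 at 0 min, −0.16 and 0.08 at 10 min, 0.44 and 0.51 at 30 min, 0.47 and 0.53 at 60 min and 0.34 and 0.91 at 120 min. The 10 min arrays overlapped the 0 min arrays, and all 6 later arrays lay above them. It rose by 0.41 at 30 min, 0.44 at 60 min and 0.56 at 120 min (limma's adjusted p = 0.04436, 0.02847 and 0.003246), each call lost without the 0 min replicate 1 array (0.27, 0.30 and 0.42, with limma's adjusted p = 0.365, 0.276 and 0.0773). Calls at 30 and 60 min were also lost without either array of that time (0.0733 to 0.153) and with near-repeat arrays counted once (0.204 and 0.147), and the one at 120 min without its replicate 2 (0.28, 0.167).

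With 10 min as the starting time in 2C/S-H/Y, the comparison in which cnp3 was not called, cnp1 differed by 0.51, 0.54 and 0.66 at 30, 60 and 120 min (limma's adjusted p = 0.119, 0.04201 and 0.001359). In the other strains no single time was called for cnp1. Cdelta53 had −0.08 and −0.24 at 0 min, −0.33 and −0.24 at 10 min, 0.15 and 0.34 at 30 min, 0.17 and 0.12 at 60 min and −0.12 and −0.30 at 120 min. Cdelta94 had 0.21 and 0.15 at 0 min, 0.05 and 0.39 at 10 min, 0.38 and 0.34 at 30 min, 0.42 and 0.75 at 60 min and −0.10 and 0.17 at 120 min. In both strains the 30 and 60 min arrays lay above the 0 min pair and the 120 min arrays overlapped it.

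The strains parted in cnp1 at 120 min. The interaction F test gave a limma adjusted p of 0.001053. The 120 min difference of Cdelta21 was higher than that of Cdelta53 by 1.01 (SE 0.21, 2.021-fold, limma's adjusted p = 0.001743) and higher than that of Cdelta94 by 1.11 (2.158-fold, limma's adjusted p = 0.001328). With near-repeat arrays counted once the first of these had a limma adjusted p of 0.0814. The 2 probes of cnp1 correlated at r = 0.56 over the 40 arrays, and with probe 2 alone the interaction had a limma adjusted p of 0.0714. Each of the 120 min calls was lost with 1 of the probes. Against Cdelta53 the gap was 0.73 with probe 1 alone (limma's adjusted p = 0.0636). Against Cdelta94 it was 1.23 with probe 2 alone (limma's adjusted p = 0.0595).

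Averaged over the 4 strains with equal weight, cnp1 was higher than at 0 min by 0.31 at 30 min (SE 0.07, limma's adjusted p = 0.002779), 0.39 at 60 min (1.314-fold, limma's adjusted p = 0.0001639) and 0.33 at 120 min (limma's adjusted p = 0.0005545). The 10 min difference was 0.02. With probe 2 alone the 30 and 120 min calls were lost (limma's adjusted p = 0.177 and 0.184), and the 60 min call held in every alternative tried. For cnp3 the mean over strains was −0.43 at 10 min, −0.83 at 30 min, −0.85 at 60 min and −0.88 at 120 min (SE 0.06, limma's adjusted p at most 2.528e-05). Without 2C/S-H/Y it was 0.07 at 10 min (limma's adjusted p = 0.592), and −0.35, −0.37 and −0.42 at the later times (limma's adjusted p = 0.000772, 0.000198 and 1.93e-05). At 30 min the value without that strain came mostly from Cdelta94 (−0.86), beside 0.01 in Cdelta21 and −0.19 in Cdelta53, neither of them called.

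Of the 9 genes, 1 was called at 10 min in that mean, where 9.49% of all features were, and that gene was cnp3. At 30 min 4 were called (26.7% of features), with cnp1 and mis6 higher and cnp3 and cnt5 lower. At 60 min cnp1 and cnp3 were the 2 called (33.1%). At 120 min 6 were called (48.2%), with cnp1 and mis6 higher and cnp3, mis12, mis18 and sim4 lower. The difference of cnp3 was the 2nd lowest of 5004 at 30 min and the 5th lowest at 60 min. The median difference of the 9 genes at 60 min was −0.07, and that of all features −0.02.

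**Figure D3:**
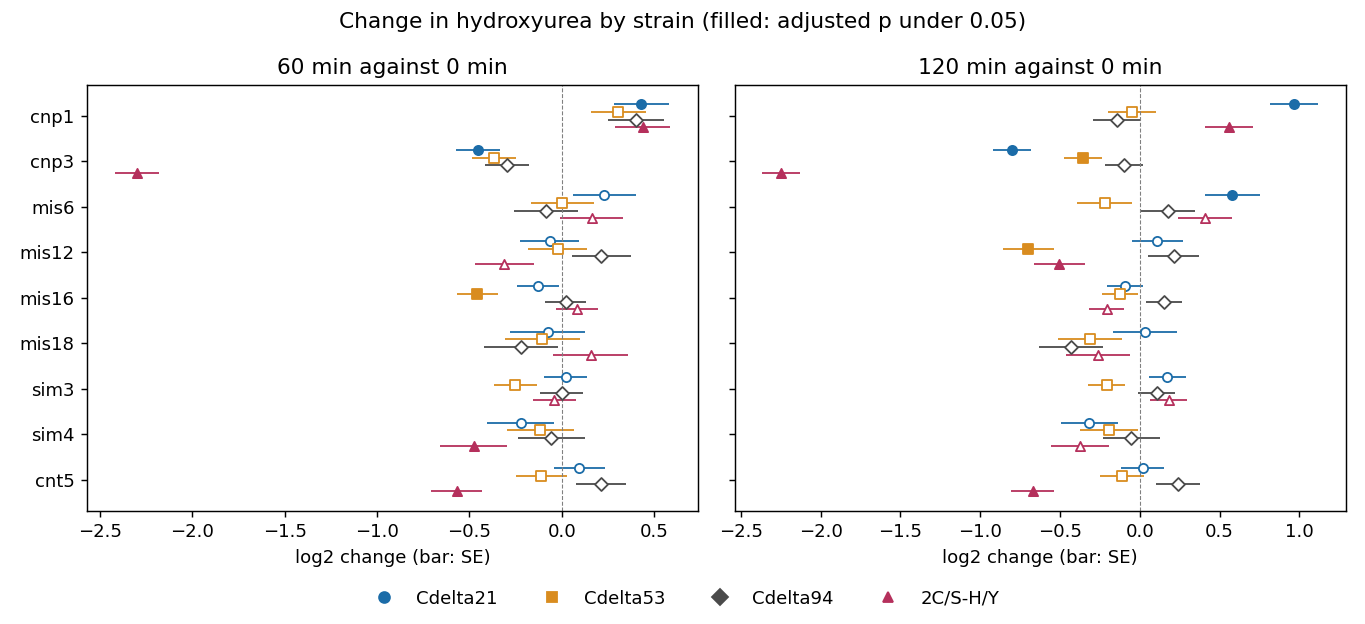
Log2 difference from 0 min at 60 min (left) and 120 min (right) of each gene in each strain, with bars of 1 SE. Filled symbols passed the test at an adjusted p under 0.05. In 2C/S-H/Y cnp3 lies at −2.30 and −2.25, and cnp1 of Cdelta21 reaches 0.97 at 120 min.

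Of the loading factors, mis16 and mis18 differed most between Cdelta53 and the other strains. For mis18 the Cdelta53 arrays ran from −0.86 to −0.32 with a median of −0.50, all 10 below the reference. Those of Cdelta21 ran from 0.26 to 0.88 (median 0.51), those of Cdelta94 from −0.03 to 1.12 (median 0.73) and those of 2C/S-H/Y from −0.21 to 0.62 (median 0.31). Cdelta53 did not overlap any other strain, but its 10 arrays were 5 near-repeat pairs. A difference in level was also the rule, since at least 68.8% of all features were called between Cdelta53 and each other strain. How many features part without overlap was not counted. Over the 5 times mis18 was higher in Cdelta21 than in Cdelta53 by 1.06 (SE 0.09, 2.078-fold, limma's adjusted p = 4.131e-11). Cdelta53 minus Cdelta94 was −1.19 (2.279-fold) and Cdelta53 minus 2C/S-H/Y was −0.83 (limma's adjusted p at most 2.526e-09). For mis16 the order was turned over. Cdelta53 ran from 0.40 to 0.89 (median 0.74), above a highest value of 0.38 in Cdelta21 and 0.23 in Cdelta94, and overlapped 2C/S-H/Y only at that strain's highest array, 0.41. Over times, Cdelta21 minus Cdelta53 was −0.42, and Cdelta53 was higher than Cdelta94 by 0.57 and than 2C/S-H/Y by 0.56 (limma's adjusted p at most 2.594e-08). Across the 20 group means mis16 and mis18 correlated at r = −0.78, over points that share the reference and in which Cdelta53 is high in one gene and low in the other.

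In hydroxyurea these 3 genes gave few calls. The level of mis18 in Cdelta94 went from 0.90 and 1.12 at 0 min to −0.03 and 0.51 at 30 min. It fell by 0.77 (SE 0.20, limma's adjusted p = 0.006134). That call was lost without the 0 min replicate 2 array (−0.65, limma's adjusted p = 0.0815) or the 30 min replicate 1 array (−0.50, 0.143). The mis16 level of Cdelta53 went from 0.84 and 0.89 at 0 min to 0.40 and 0.42 at 60 min. It fell by 0.46 (limma's adjusted p = 0.01028). With near-repeat arrays counted once its adjusted p was 0.458, and without any 1 of these 4 arrays 0.0682 to 0.101. In the mean over strains mis18 fell by 0.24 at 120 min (limma's adjusted p = 0.048), a call lost in 27 of the 40 fits that left out 1 array, and by counting near-repeat arrays once (0.147). The largest mean difference of sim3 was 0.10 at 10 min (limma's adjusted p = 0.2733).

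The 2 probes of sim3 did not read the same thing. They correlated at r = −0.35 over 40 arrays, and probe 1 was higher than probe 2 by 0.50 on average. At 0 min in Cdelta21 probe 1 read 0.38 and 0.44 and probe 2 read −1.15 and −1.0. The mean of the probes was −0.33 there (limma's adjusted p = 0.001316), and probe 1 alone gave 0.41 the other way (0.0186). Levels of sim3 below are therefore given with no weight placed on their direction.

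Among the inner and outer kinetochore genes, mis6 was also low in Cdelta53. Its arrays ran from −0.89 to −0.41 (median −0.58) in that strain, from −0.54 to 0.43 (median 0.02) in Cdelta21, from −0.27 to 0.46 (median −0.14) in Cdelta94 and from −0.29 to 0.28 (median −0.15) in 2C/S-H/Y. Cdelta53 overlapped Cdelta21 at 1 array of the latter and the other strains at none. As stated for mis18, most features differed in level between Cdelta53 and each other strain. Over times, Cdelta21 was higher than Cdelta53 by 0.64, and Cdelta53 minus Cdelta94 was −0.59 and minus 2C/S-H/Y −0.55 (SE 0.08, limma's adjusted p at most 2.468e-07). In hydroxyurea mis6 of Cdelta21 rose from −0.24 and −0.23 at 0 min to 0.26 and 0.43 at 120 min, by 0.58 (SE 0.17, limma's adjusted p = 0.0141). That call was lost without either 0 min array or the 120 min replicate 2 array (limma's adjusted p up to 0.115), and its adjusted p was 0.0514 with near-repeat arrays counted once. In the mean over strains mis6 was higher by 0.24 at 30 min and at 120 min (limma's adjusted p = 0.03544 and 0.0238). With near-repeat arrays counted once both values stayed at 0.24 and both calls were lost. Probe 1 alone gave 0.22 and 0.26 (limma's adjusted p = 0.187 and 0.0681), and probe 2 alone 0.21 at 120 min (0.0768). Without Cdelta94 the 30 min value was 0.19 (limma's adjusted p = 0.19), and without 2C/S-H/Y the 120 min value was 0.18 (0.159). The calls were also lost in 13 and 5 of the 40 fits that left out 1 array.

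The CENP-K gene sim4 lay below the reference on all 40 arrays. All arrays share the reference pool and the dyes, so an offset from either cannot be told apart from a level common to the strains. Its medians were −0.85 in 2C/S-H/Y, −0.84 in Cdelta21, −0.50 in Cdelta53 and −0.32 in Cdelta94. Over the 5 times Cdelta21 minus Cdelta53 was −0.36 and Cdelta21 minus Cdelta94 −0.49. Cdelta53 was higher than 2C/S-H/Y by 0.41 and Cdelta94 by 0.54 (SE 0.08, limma's adjusted p at most 0.0002925). Within strains 1 difference was called, −0.48 at 60 min in 2C/S-H/Y (limma's adjusted p = 0.04715), from −0.46 and −0.71 at 0 min to −1.22 and −0.90. It was −0.32 with near-repeat arrays counted once (0.325), and the call was lost in 21 of the 40 fits that left out 1 array. The outer kinetochore gene mis12 was highest in Cdelta94, where all 10 arrays lay above the reference, from 0.05 to 0.70. It lay below the reference on all 10 arrays of Cdelta21 (−0.83 to −0.12) and of 2C/S-H/Y (−0.71 to −0.13).

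The strains Cdelta53 and 2C/S-H/Y had mis12 called lower at 120 min. In Cdelta53 it stood at 0.17 on both arrays at 0 min and at −0.63 and −0.42 at 120 min. It fell by 0.70 (SE 0.16, limma's adjusted p = 0.0008833). With near-repeat arrays counted once its adjusted p was 0.0681. The 2C/S-H/Y level went from −0.26 and −0.13 to −0.71 and −0.69. It fell by 0.50 (limma's adjusted p = 0.01186), a call lost without the 0 min replicate 2 array (−0.44) or the 120 min replicate 1 array (−0.50). Quantile normalization gave −0.30 (limma's adjusted p = 0.0724) and probe 2 alone −0.37 (0.287). Against the 10 min arrays of this strain the 120 min difference was −0.38 (limma's adjusted p = 0.07769). The interaction F test for mis12 had a limma adjusted p of 0.01416, and of 0.236 with near-repeat arrays counted once or 0.0615 without the Cdelta53 120 min replicate 1 array. In the mean over strains mis12 differed by −0.22 and sim4 by −0.23 at 120 min (limma's adjusted p = 0.02459 and 0.03482), and neither call held without 2C/S-H/Y (0.303 and 0.167) or with near-repeat arrays counted once (0.0937 and 0.0531). With quantile normalization they were −0.15 (0.0752) and −0.08 (0.466), with probe 2 alone −0.14 (0.398) and −0.08 (0.572), and the calls were lost in 6 and 10 of the 40 fits that left out 1 array.

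The MBF target cnt5 was not called higher than at 0 min at any later time in any strain. Of 15 other MBF targets, 13 were higher at 60 min in the mean over strains and 0 were lower, where 12.9% and 20.2% of all features were, with 14 differences above 0. The largest rises were those of cdc18, which licenses replication origins (1.38), and cdt2, which directs protein degradation in S phase (1.05). The difference of cnt5 was −0.09 at 60 min (SE 0.07, limma's adjusted p = 0.3147). It was −0.25 at 30 min (limma's adjusted p = 0.007949), a call lost without 2C/S-H/Y (−0.15, 0.207) and by counting near-repeat arrays once (−0.18, 0.133). The cnt5 level of 2C/S-H/Y was 0.41 and 0.32 at 0 min, −0.15 and −0.07 at 10 min, −0.43 and 0.07 at 30 min, −0.40 and −0.01 at 60 min and −0.26 and −0.35 at 120 min. All 8 later arrays lay below the 0 min pair.

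Its differences there were −0.47, −0.54, −0.57 and −0.67 at 10, 30, 60 and 120 min (SE 0.14, limma's adjusted p = 0.01287, 0.004098, 0.002395 and 0.0002384). As with cnp3 the movement lay between the 0 and 10 min arrays, and against 10 min the later differences were −0.07, −0.09 and −0.20 (limma's adjusted p = 0.9476, 0.8557 and 0.3092). The 10, 30 and 60 min calls were lost without replicate 1 of that time, with values of −0.44, −0.29 and −0.37 (limma's adjusted p = 0.09, 0.194 and 0.0906), and those at 10 and 30 min also without replicate 1 at 0 min (0.11 and 0.0523). Both of the calls at 30 and 60 min were also lost with near-repeat arrays counted once (0.293 and 0.131). In Cdelta21 the 10 arrays of cnt5 stayed between −0.09 and 0.24. In Cdelta94 it stood at −0.26 and −0.21 at 0 min, −0.70 and −0.23 at 10 min, −0.60 and −0.42 at 30 min, and between −0.08 and 0.09 afterwards, and the time course F test had a limma adjusted p of 0.007566. Courses of cnt5 differed between strains (limma's adjusted p = 0.006487 for the interaction).

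By strain, 2 of the 9 genes were called in Cdelta21 at 60 min and 3 at 120 min (17.7% and 24.1% of features), 1 and 2 in Cdelta53 (8.59% and 41.1%), and 2 in Cdelta94 at 30 min (24.2%). At the 4 times 2, 3, 4 and 4 were called in 2C/S-H/Y (23.1%, 25.9%, 29.5% and 44.3%). At the other 7 strains and times limma called 0 of the 9, with 0 or 1 at an unadjusted p under 0.05 except for 2 in Cdelta94 at 60 min, and few features were called at all there. The shares of features were 2.18% and 1.46% at 10 and 30 min in Cdelta21, 2.50% and 3.84% in Cdelta53, and 0.0799%, 5.34% and 0.759% at 10, 60 and 120 min in Cdelta94. As whole time courses 3 of the 9 were called in 2C/S-H/Y (43.0%), 2 in Cdelta21 (24.5%), 4 in Cdelta53 (49.8%) and 4 in Cdelta94 (33.7%). Only cnp1 and cnp3 were called in all 4 of these F tests, and the cnp1 call in Cdelta94 (limma's adjusted p = 0.04362) was lost in 16 of the 40 fits that left out 1 array and when near-repeat arrays were counted once (0.136). With near-repeat arrays counted once 0 of the 9 courses of Cdelta53 were called. Between strains 4 of the 9 courses differed (52.6%). Of 54 comparisons of a gene between pairs of strains, 6 differed in the 60 min change and 15 in the 120 min change, and 3 and 8 when near-repeat arrays were counted once. At 60 min 2 of the 9 genes differed between 2C/S-H/Y and each truncation (18.5% of features for Cdelta21, 14.0% for Cdelta53 and 14.6% for Cdelta94), and 0 between truncations by limma (1.72%, 0.300% and 0.400%), with 1, 0 and 1 at an unadjusted p under 0.05. At 120 min 2 to 4 differed between 2C/S-H/Y and a truncation (18.6%, 27.9% and 26%), 3 between Cdelta21 and Cdelta53 (15.8%), 2 between Cdelta21 and Cdelta94 (5.52%) and 1 between Cdelta53 and Cdelta94 (22.5%).

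At 0 min several of the 9 genes already differed from the wild-type reference. The reference is 1 pooled control here, so this test leaves out its own spread and any effect of the dyes. In Cdelta21 at 0 min 5 of the 9 were called (53.9% of features), with mis16 and mis18 higher and mis12, sim3 and sim4 lower. Without replicate 1 the calls of mis18 (0.26, limma's adjusted p = 0.326), mis12 (0.0771) and sim3 (0.0667) were lost, and without replicate 2 that of mis16 (0.0828). In Cdelta53 6 were called (57.2%), with cnp3 at 0.74 and mis16 at 0.87 higher and mis6, mis18, sim3 and sim4 lower. Those of mis18, sim3 and sim4 were lost with near-repeat arrays counted once (limma's adjusted p = 0.233, 0.185 and 0.0811) and without either 0 min array, and sim3 was 0.12 with probe 1 alone. In Cdelta94 4 were called (67.4%), with sim3 and cnt5 lower and cnp3 and mis18 higher, cnp3 at 1.00 (SE 0.08, 1.995-fold, limma's adjusted p = 7.279e-11) and mis18 at 1.01 (SE 0.14, 2.015-fold, limma's adjusted p = 6.075e-07). The cnt5 call (−0.23, limma's adjusted p = 0.03728) was lost without either 0 min array (0.217 and 0.127), with each probe alone, with quantile normalization (0.121) and with array medians subtracted (0.0929). The 2C/S-H/Y strain had 3 called (48.6%), with cnp3 at 0.42 and cnt5 at 0.37 higher and sim4 at −0.59 lower. There cnt5 lost its call without replicate 1 (0.0894) and sim4 without replicate 2 (0.0546). The level of cnp1 lay within 0.18 of the reference in all 4 strains at 0 min and was called in none (smallest unadjusted p 0.1002).

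Over the 5 times, 5 to 8 of the 9 genes differed in level between the members of each of the 6 pairs of strains, where 65.5% to 87.1% of features did. The count was 8 for Cdelta21 against Cdelta53 (68.8%) and for Cdelta53 against 2C/S-H/Y (80%), 6 for Cdelta94 against each of the other strains (78.7%, 73.0% and 87.1%) and 5 for Cdelta21 against 2C/S-H/Y (65.5%). The range of the 20 group means was 2.87 for cnp3, the 91st widest of 4794 named genes, and 1.79 for mis18, the 417th, beside a median of 1.04. It was 0.70 for sim3 and 0.87 for cnt5. No batch is recorded in the labels, so strain effects and effects of separate processing cannot be told apart.

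Other genes of the centromere and kinetochore were counted at 60 min in the mean over strains, where 12.9% of all features were higher and 20.2% lower. Of these, 2 of 14 other inner kinetochore genes were higher and 4 lower, with fta7 (0.25) and fta6 (0.22) the most raised and fta5, now pfl8 in RefSeq (−0.50), and fta1 (−0.25) the most lowered. The gene pfl8 entered this list only by its other name fta5, and whether it is a kinetochore gene was not checked. Of 9 outer kinetochore genes of the KNL1, MIS12 and NDC80 complexes 2 were lower, spc25 (−0.25) and nnf1 (−0.19). Of 7 genes of DASH, the ring complex on microtubules, 1 was higher (dad1, 0.17). Among 6 spindle checkpoint genes the kinase gene bub1 was lower (−0.19), and among 14 heterochromatin and RNAi genes stc1 was higher (0.23) and swi6 (−0.24) and rik1 (−0.20) lower. The inner centromere and cohesion list had 4 of 10 higher and 1 lower, led by the cohesin genes psm3 (0.55) and psc3 (0.41), with nbl1, a subunit of the Aurora kinase complex, at −0.27. Of that list psm3 and rad21 are also on the MBF list. Of 11 other chaperones and regulators of CENP-A and histone H3, ams2 was higher (1.01) and hip4 lower (−0.35). The medians of these 7 lists ran from −0.07 to 0.15, beside −0.02 for all features.

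**Figure D4:**
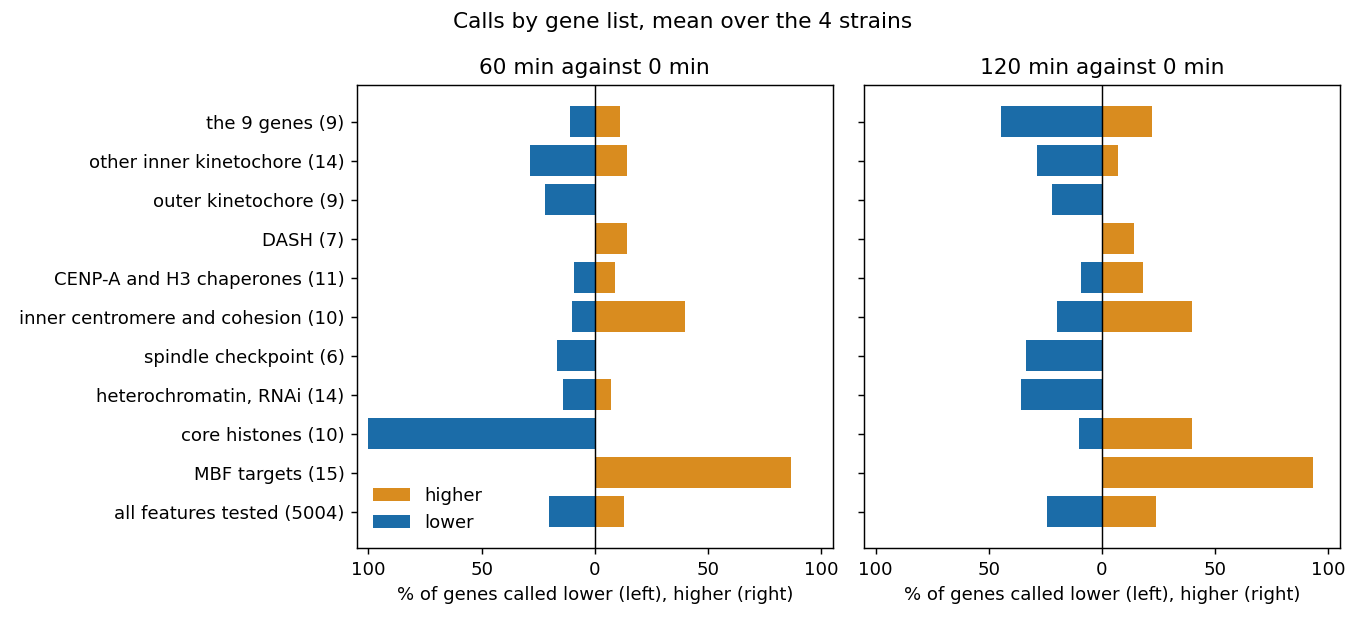
Share of each gene list called higher (right) or lower (left) in the mean over the 4 strains at 60 min and 120 min, with the number of genes in brackets. The kinetochore lists hold few calls or calls in both directions, the core histones are all lower at 60 min, and the MBF targets are nearly all higher.

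The gene closest to cnp1 in its course was ams2. Ams2 is a GATA-type factor that fission yeast needs to place CENP-A at centromeres and to transcribe histone genes. Across the 20 group means cnp1 and ams2 correlated at r = 0.81, the highest of all named genes, followed by SPOM_SPAC11D3.17 (0.77), yfh7 (0.76), pnk1 (0.76) and mpo1 (0.75). These points share the reference and the arrays. In Cdelta21 ams2 stood at 0.40 and 0.47 at 0 min and at 2.34 and 2.23 at 120 min, and in 2C/S-H/Y at 0.01 and 0.13 and at 1.97 and 2.35. In Cdelta53 it stood at −0.53 on both arrays at 0 min, 0.42 and 0.41 at 60 min and 0.12 and 0.20 at 120 min, and in Cdelta94 at −0.10 and 0.00 and at −0.07 and 0.24. At 120 min ams2 rose by 1.85 in Cdelta21, 2.09 in 2C/S-H/Y and 0.69 in Cdelta53 (limma's adjusted p at most 4.009e-05), and differed by 0.13 in Cdelta94 (0.7639). The strains in which ams2 was highest at 120 min were those in which cnp1 was called higher at that time. Because ams2 was singled out by its likeness to cnp1 over these same group means, this agreement is no test of a link.

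Genes of the core histone list went another way at 60 min. The list also holds pht1, the gene of the variant H2A.Z, which is counted with the others throughout. In the mean over strains all 10 genes of the list were lower at 60 min (20.2% of features). Their median was −0.35, with hht2 (histone H3) at −0.56 and hta2 (H2A) at −0.47. At 120 min 4 were higher and 1 lower (23.9% and 24.4% of features), with a median of 0.14. Copies of a histone gene are nearly identical, and how far the probes tell them apart is not known. At 60 min, in the mean over strains, cnp1 was thus higher while the genes of the histones that CENP-A replaces or joins were lower. At 0 and 60 min their median was 0.10 and −0.32 in Cdelta21, −0.04 and −0.19 in Cdelta53 and −1.02 and −1.24 in Cdelta94. In 2C/S-H/Y the core histone median was 0.53 at 0 min and 0.08, 0.12, 0.28 and 0.89 at 10, 30, 60 and 120 min. It was lower at 60 min there only against the 0 min arrays, which stood apart. At 120 min the Cdelta21 median was 0.33, above its 0 min value, as cnp1 was. In Cdelta94 the core histone median lay between −1.24 and −0.75 at all 5 times, and cnp1 lay between 0.04 and 0.58.

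**Figure D5:**
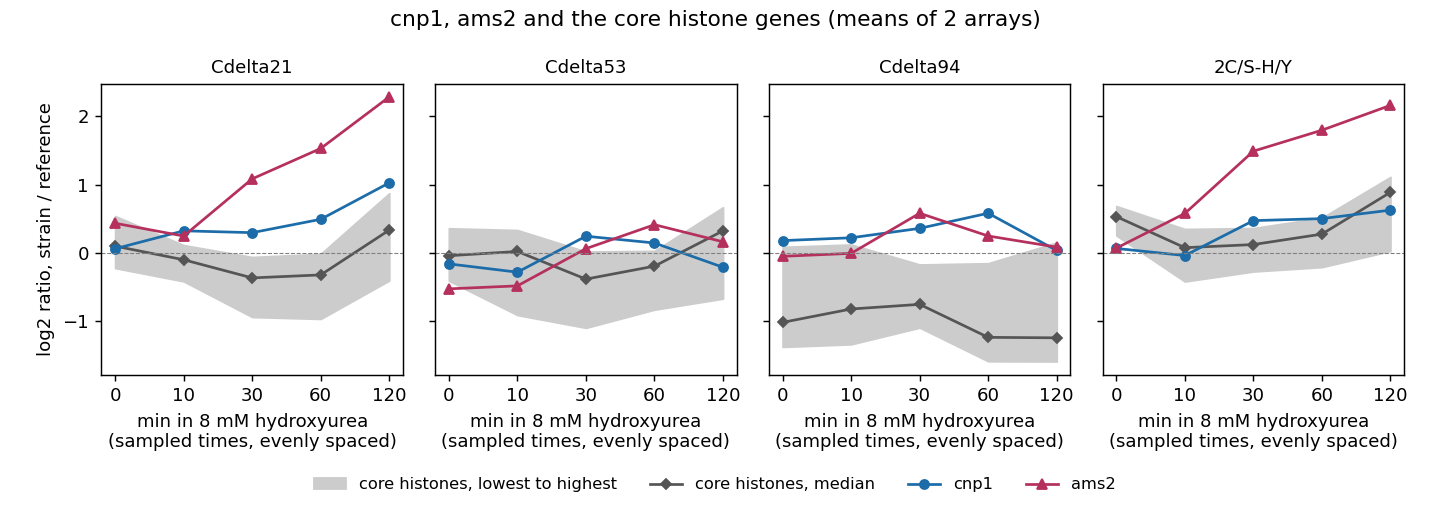
Group means (2 arrays each) of cnp1 and ams2, and the median and range of the 10 genes of the core histone list (with the variant gene pht1), as log2 ratio of strain to reference, by strain and sampled time (evenly spaced). In Cdelta21 and 2C/S-H/Y ams2 reaches 2.28 and 2.16 at 120 min, and in Cdelta94 the core histone median stays between −1.24 and −0.75.

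For cnp3 the closest courses were those of mrpl3, a mitochondrial ribosomal protein gene (r = 0.96 over 20 group means), wdr74 (0.94), mis15, another inner kinetochore gene (0.94), rrp8 (0.94) and hmo1 (0.93). All 5 had their lowest strain mean in 2C/S-H/Y. They were chosen by likeness to cnp3, itself lowest there, so this and the mis15 differences below are no separate support. Among the other genes of the set sim4 was nearest to cnp3 (r = 0.85). The gene mis15 differed in 2C/S-H/Y by −0.53 at 30 min, −0.59 at 60 min and −0.78 at 120 min (limma's adjusted p at most 0.0006008), with −0.25 at 10 min (0.1011). For cnt5 the closest were spt8 (0.74), mug115 (0.73), abp2 (0.70), ilv1 (0.68) and avl9 (0.67). The gene abp2, which encodes an AT-rich DNA-binding protein of replication origins, is also the next gene after cnp3 in the RefSeq order of assembly ASM294v3.

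The neighbours of cnp3 were read because of its early fall in 1 strain, after its values were seen. In 2C/S-H/Y abp2 stood at 0.65 and 0.72 at 0 min and at −0.71 and −0.45 at 10 min, and it fell by 1.27 (SE 0.11, 2.406-fold, limma's adjusted p = 1.259e-09). It stayed between −0.68 and −0.45 on the 6 later arrays. Of the other neighbours within 3 genes on the array, rpl1901 went from 0.46 to 0.21 in group means between 0 and 10 min, pof12 from −0.15 to −0.11, naa35 from −0.16 to −0.01 and prp24 from −0.25 to −0.27. The drop was thus shared by cnp3 and 1 adjacent gene and was not seen at this size in these 4. The gene adjacent on the other side, mrpl44, had no values here. Of all features 23.1% were called in this strain at 10 min. The 2C/S-H/Y arrays of 0 min stood apart across all features, and their part in this drop was not tested.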

How the data were processed

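RNA of 4 rep2 strains at 5 times (2 arrays per group, 40 arrays) was compared with a wild-type reference on two-colour arrays, strain in Cy5 and reference in Cy3, per the labels. The authors deposited 1 table of log2 ratios of strain to reference. How it was background-corrected and normalized is not given in the sources used here. The base was checked from the values, of which 100% came back to whole multiples of 0.001 (tolerance 0.02) as base 2 and 3.48% as base 10. The direction was taken from the dyes, since the table does not state it. Array medians ran from −0.12 to 0.06 and 1.17% of values were missing. Single arrays' signal over background is unknown, and the number of arrays limits the precision.

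Of 9858 probes 9632 had 1 gene symbol, 44 several and 182 none. Probes of a gene were averaged, and features with values on at least 80% of arrays were kept (5004 of 5042). Differences were fitted with limma 3.58.1 (R 4.3.3, Python 3.11.15) on 20 group means with 20 residual degrees of freedom and no covariates. p-values are two-sided, with Benjamini-Hochberg adjustment over the 5004 features. The procedure was tested on simulated data. The 9 genes and the gene lists were chosen with earlier results of these data known. All 9 are named. Of each other list up to 2 rising and 2 falling genes with the largest called differences at 60 min are named, and for cnp1, cnp3 and cnt5 the 5 genes with the highest correlation. Listed genes without a probe match were not analysed here. Alternatives were quantile normalization, array medians subtracted, a replicate block, features with a value on every array, each probe alone, groups fitted alone, near-repeat arrays (SD of the difference under 0.1) counted once, strains or times left out, and each array left out.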

Additional observations from a re-analysis of the deposited data

Results flagged for a closer look

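The time courses of 4 of the 9 genes differed between strains by the interaction F test over strain and time, where 52.6% of all features did. For cnp3 limma's adjusted p was 5.678e-11, for cnp1 0.001053, for cnt5 0.006487 and for mis12 0.01416. With 2 arrays in each group, single arrays were not tested for standing apart from their group.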

How the results depend on the processing

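Of 131 called values of the 9 genes, quantile normalization lost 14, subtracting array medians 2, probe 1 alone 47, probe 2 alone 31, near-repeat arrays counted once (33 arrays, 13 residual degrees of freedom) 40, and fitting only the compared groups 20 of 127, while the replicate block and the demand for a value on every array lost 0. Arrays were not treated as paired by replicate number, since deviations of same-numbered arrays of a strain correlated over 0.1 in 21 of 40 pairs of times and not in all (lowest −0.24, highest 0.65), although all pairs among the later times of 2C/S-H/Y did (0.24 to 0.65). With the replicate as a block the calls in Cdelta94 went from 2 to 5, its time courses from 4 to 7 and the interaction from 4 to 7.

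Counts of genes called moved by over 1.5 times as follows. In the mean over strains the count at 10 min went from 1 to 2 with the groups fitted alone and to 0 without 2C/S-H/Y. At 30 min it went from 4 to 2 with near-repeat arrays once, at 60 min from 2 to 4 without Cdelta94, and at 120 min from 6 to 3 with probe 2, to 2 with near-repeat arrays once and to 2 without 2C/S-H/Y. Within Cdelta21 it went from 5 to 3 with probe 1, groups alone or near-repeat arrays once. Within Cdelta53 it went from 3 to 7 with quantile normalization, 1 with probe 1, 23 with groups alone and 0 with near-repeat arrays once. With groups alone 3073 to 3938 of all 5004 features were called at a time in Cdelta53, against 125 to 2056 in the main fit. Within 2C/S-H/Y it went from 13 to 8 with probe 1, groups alone or near-repeat arrays once. Pairs of strains went at 60 min from 6 to 3 with probe 1 or near-repeat arrays once, and at 120 min from 15 to 5 and 8. Levels of Cdelta21 against 2C/S-H/Y went from 5 to 2 with probe 1 and 3 with near-repeat arrays once. Against the reference Cdelta53 went from 6 to 3 with near-repeat arrays once, and 2C/S-H/Y from 3 to 6 with quantile normalization or groups alone. Time courses went in Cdelta21 from 2 to 1 with probe 2, and in Cdelta53 from 4 to 2 with probe 1, 9 with groups alone and 0 with near-repeat arrays once. Those in Cdelta94 went from 4 to 1 with quantile normalization or groups alone and to 2 with probe 1 or near-repeat arrays once, and in 2C/S-H/Y from 3 to 1 with groups alone. The cause was not tested, apart from the fewer arrays of some alternatives.

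In 5 results the direction turned. The mean of cnp3 at 10 min was 0.0701 without 2C/S-H/Y, its level in Cdelta53 minus Cdelta94 was 0.10 with quantile normalization, sim3 in Cdelta94 minus 2C/S-H/Y was 0.15 with probe 2, and sim3 against the reference was 0.41 in Cdelta21 and 0.12 in Cdelta53 with probe 1. Leaving out 1 array gave 1 to 1, 3 to 5, 2 to 3 and 3 to 6 calls in the mean over strains at 10, 30, 60 and 120 min. Within 2C/S-H/Y it gave 7 to 14, within Cdelta21 2 to 5, within Cdelta53 1 to 4 and within Cdelta94 1 to 4. Between changes of strains it gave 3 to 7 at 60 min and 11 to 17 at 120 min, and between levels 8 to 8 (Cdelta21 and Cdelta53), 5 to 7 (Cdelta21 and Cdelta94), 4 to 6 (Cdelta21 and 2C/S-H/Y), 5 to 7 (Cdelta53 and Cdelta94), 8 to 9 (Cdelta53 and 2C/S-H/Y) and 5 to 6 (Cdelta94 and 2C/S-H/Y). Against the reference it gave 2 to 4, 2 to 6, 3 to 6 and 3 to 5 in that order of strains, for time courses 2 to 5, 2 to 3, 3 to 5 and 2 to 5, and for the interaction 3 to 6. The planned description of promoter motifs was not run, since no promoter sequence was used here.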
